A study of Mus musculus with 6 samples.

Results

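The 45 genes described here are expressed by microglia, by the macrophages of the meninges and vessels, or by leukocytes in general, and they were followed in RNA-seq libraries of cultured oligodendrocyte precursor cells (OPCs) with and without GDE3. They were taken from a list of symbols and located by position in the transcripts of each library, and they make up 45 of 32124 genes quantified. All 45 had a quantifiable model, 43 were above 0 in at least 1 library, and 36 passed the minimum level for testing, among 12052 genes tested. By their known roles they were split into homeostatic microglial genes (8), border macrophage genes (4), genes shared by the myeloid lineage (14), genes shared by leukocytes in general (12) and genes of activation (7).

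Microglia are the resident macrophages of the brain and spinal cord. They arise from the yolk sac, need the receptor CSF1R to survive, and in the newborn cord they clear dying cells and supply growth factors to oligodendrocyte progenitors. Border macrophages sit in the meninges and around vessels, share the myeloid receptors and lysosomal enzymes of microglia, and are told apart from them by scavenger and mannose receptors.

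The study asked how GDE3, a surface enzyme that releases GPI-anchored proteins, affects OPC proliferation. Newborn C57BL/6 pups (postnatal day 0.5) gave the spinal cords, from which cells carrying the A2B5 surface ganglioside were pulled out with magnetic beads, and there were 3 libraries from Gde3 KO and 3 from wild-type (WT) cells, with no other treatment between the groups. Cells of both genotypes were plated at 150000 cells per cm2 on poly-L-lysine and laminin and kept for 16 h in proliferation medium. It contained PDGF and CNTF, each at 10 ng/mL, and the adenylate cyclase activator forskolin at 5 µM, so both groups had the same mitogens. The labels do not give the KO allele, the sex of the pups, or whether a library came from 1 pup or several, and nothing says that replicates came from separate animals, so p-values measure only the spread between these libraries.

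Levels are in FPKM (sequenced fragments, scaled to the length of the transcript and the size of the library), so genes can be compared with each other. A gene's level was the FPKM of the assembled transcripts of 300 nt or more averaged over the exonic bases that no other gene shares. It therefore falls where part of a gene was not assembled, and a 0 means that nothing of that length was assembled. Exon 9 of Gdpd2, the gene that encodes GDE3, was assembled over 0% of its bases in all 3 KO libraries and in full in all 3 WT libraries, and the level of the whole gene was 0.667, 1.5 and 1.78 FPKM in KO and 0, 2.79 and 2.85 FPKM in WT. Triplets of values are given in the order of replicates 1, 2 and 3 here and throughout. The selected cells carried OPC markers, with Olig1, a lineage transcription factor, at 356 to 518 FPKM. WT replicate 1 stood apart: 36.8% of its transcripts were shorter than 300 nt, against 2.16% to 6.61% in the other libraries, and its relative depth was 0.759 of the deepest. In that library the 36 tested members were assembled over a median of 68.4% of their bases, against 86.6% to 93.3% in the others, and 13 of them were assembled over less than 50%, against 0 to 4.

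The tested microglia and macrophage genes were mostly higher in the KO libraries, but none of them passed the test. Of the 36, 35 had a higher KO than WT mean on the log2(FPKM + 1) scale, where 48.6% of all tested genes did, and the median difference was 0.51 against -0.0054 over all genes. The minimum was a mean of 1 FPKM over the 6 libraries, which Aif1, Ptprc and Tlr7 passed with a WT mean under 1 FPKM, so these 3 passed through their KO level. With no minimum level, 42 of 43 members were higher. Without Cd68, whose level in 5 libraries comes from a transcript that runs into a neighbouring gene, 34 of 35 tested members were higher, again with a median of 0.51. Differences on this scale understate the change of genes at low levels. With limma across all 12052 genes and Benjamini-Hochberg adjustment at 0.05, 0 members were called (all 36 had an adjusted p of 0.9999), where 0% of all genes were called higher and 0.0083% lower. The single gene called was Mettl23, lower in KO. At an unadjusted p under 0.05 limma counted 7 members, all higher in KO (Pf4, Tyrobp, Lilr4b, Laptm5, Arhgdib, Fyb and Ncf1), where 0.938% of all genes passed in that direction and 1.63% in either. That count was 2 with no minimum transcript length, 4 over assembled bases alone, 4 without KO replicate 3, 4 without WT replicate 2 and 1 with FPKM summed over transcripts, where the single gene was Rac2, lower in KO. Over all genes the share at that threshold, in either direction, was 1.1% to 1.73% in those settings. In these bulk libraries, fewer cells of a type and less RNA per cell cannot be told apart.

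**Figure D1:**
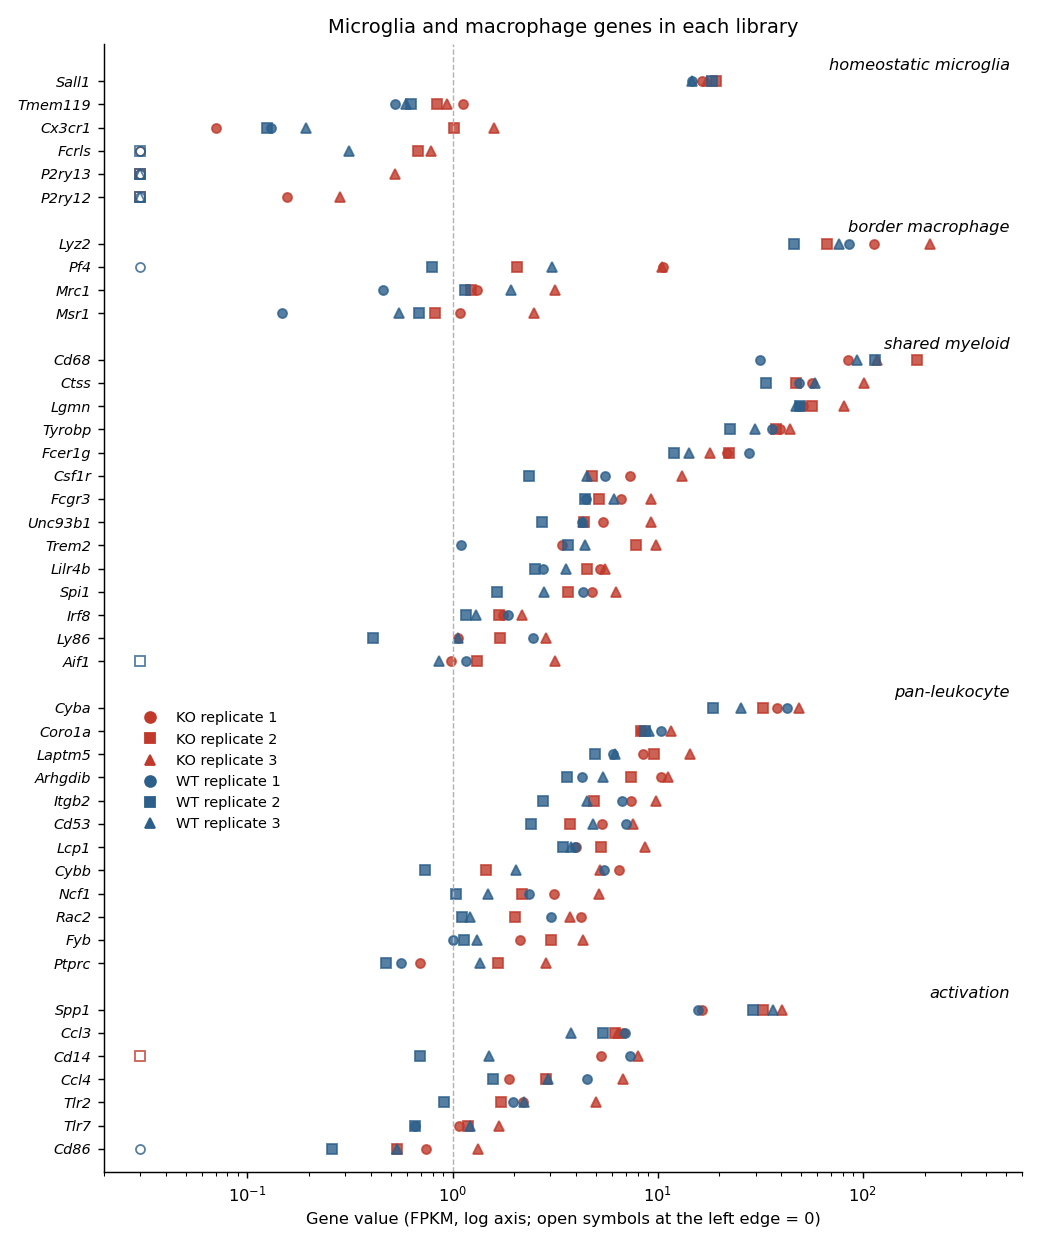
Gene value in FPKM (log axis) of the 43 members above 0, 1 row each, grouped by role, with KO libraries in red and WT libraries in blue and the replicate number given by the symbol. Open symbols stand for 0 and the dashed line marks 1 FPKM. KO replicate 3 was the highest library for 29 of the 36 tested members and WT replicate 2 the lowest for 25.

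A single library of each genotype was the extreme one for most members. KO replicate 3 was the highest of the 6 libraries for 29 of 36 members, where it was the highest for 15.9% of all tested genes, and WT replicate 2 was the lowest for 25, where it was the lowest for 10.4%. WT replicate 1 was the lowest for 6, beside 20.5% of all tested genes. Without KO replicate 3 the median difference of the tested members was 0.36, with 29 of 33 higher, and without WT replicate 2 it was 0.34, with 33 of 37 higher. For 8 of 36 members every KO library was above every WT library (Tyrobp, Lilr4b, Lgmn, Unc93b1, Laptm5, Lcp1, Arhgdib and Fyb), where this held for 2.04% of all tested genes. When levels were averaged over the assembled bases alone, which leaves out missing stretches, 3 of 39 members were separated in this way (Lgmn, Laptm5 and Tyrobp), beside 1.65% of all genes. For the other 5 the groups overlapped by that measure. With no minimum transcript length 4 of 39 were separated (Lgmn, Laptm5, Tyrobp and Msr1, the last of them under the minimum level in the main analysis), beside 1.45% of all genes.

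In the main measure, comparison within the pairs of libraries that share a replicate number gave a median above 0 in each pair, with different sizes. The numbers were taken to pair the samples, since libraries with the same number shared deviations from their groups. KO was above WT in all 3 pairs for 26 of 36 members, against 13.6% of all tested genes. KO replicate 1 was above WT replicate 1 for 26 members, with a median difference of 0.14. KO replicate 2 was above WT replicate 2 for 34, with a median of 0.55, and KO replicate 3 was above WT replicate 3 for 36, with a median of 0.91. Over all genes these shares were 42.5%, 49.5% and 53.7%. The counts for pair 1 and for all 3 pairs depend on the fragmented WT replicate 1. Tested members were assembled there over a median of 68.4% of their bases, against 91.1% in KO replicate 1. Over assembled bases alone several members that were higher in KO in pair 1 turned to lower, Mrc1, Ptprc, Fcgr3 and Lcp1 among them. The pair counts are thus given for the main measure alone. Pair 1, whose sample identifiers carry a different middle number from those of pairs 2 and 3, had the smallest difference, and pairs 2 and 3 alone gave a median of 0.74 over 37 tested members. With the replicate number as a block, limma counted 18 members higher in KO at an unadjusted p under 0.05, against 2.42% of all genes, and still called 0 of them, nor any other gene. Trem2 had the smallest p of the members in that fit, at 0.00044 before adjustment and 0.771 after it. The fit used the main measure, in which 48.0% of the bases of Trem2 were assembled in WT replicate 1.

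**Figure D2:**
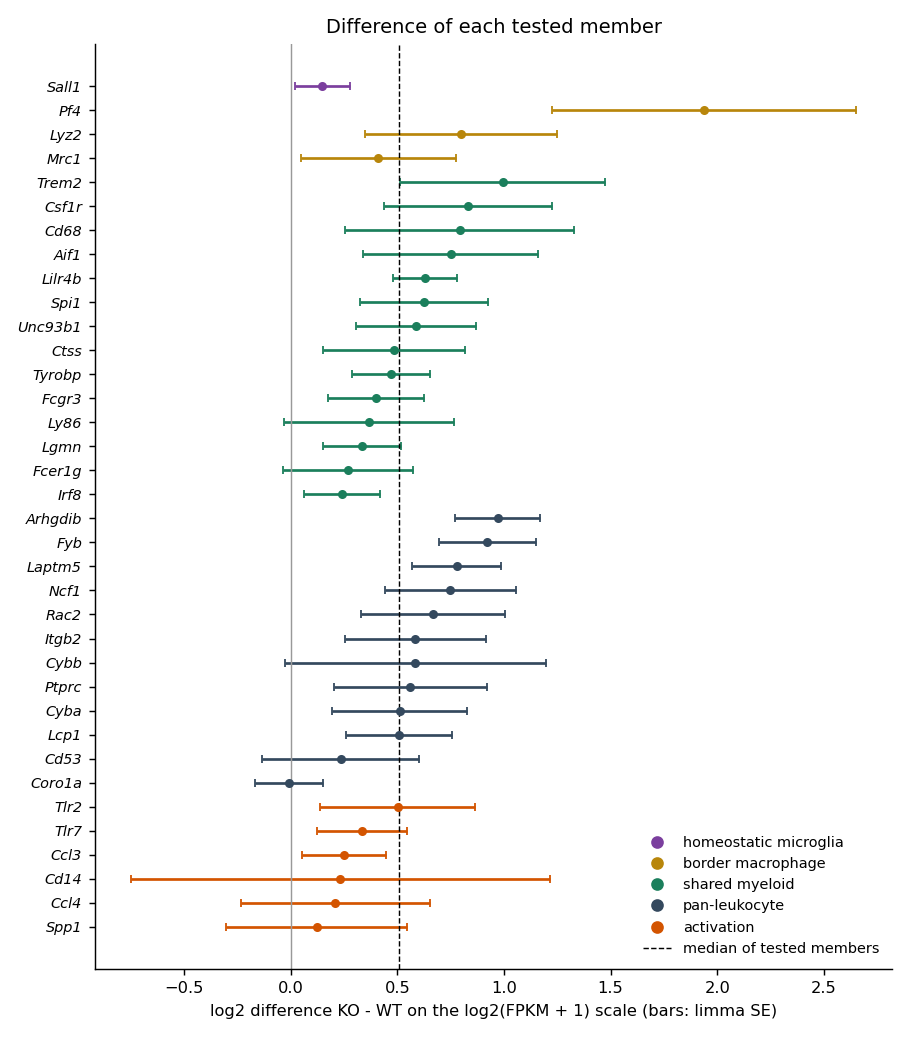
KO minus WT difference on the log2(FPKM + 1) scale (x axis) for the 36 tested members, coloured by role, with bars of 1 limma standard error and a dashed line at their median of 0.51. All points but that of Coro1a, which was at -0.0081, lie above 0, and Cd14 has the widest bar.

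In the main measure the homeostatic microglial genes other than Sall1 were at 1.59 FPKM or less in both genotypes. Gpr34 and Siglech, microglial surface receptors, were at 0 in all 6 libraries. P2ry12 and P2ry13, purinergic receptors that guide microglial processes, were at 0 in all 3 WT libraries. In KO, P2ry12 was at 0.157, 0 and 0.281 FPKM and P2ry13 at 0, 0 and 0.522 FPKM. Cx3cr1, the fractalkine receptor, was at 0.0705, 1.01 and 1.59 FPKM in KO against 0.130, 0.125 and 0.192 FPKM in WT, and KO replicates 2 and 3 were the high ones. Tmem119, a surface protein of mature microglia, was at 1.12, 0.842 and 0.944 FPKM in KO against 0.522, 0.631 and 0.594 FPKM in WT. In WT replicate 1 it was assembled over 19.7% of its bases, and with no minimum transcript length that library was at 0.859 FPKM, above KO replicate 2 at 0.842 FPKM, so the groups overlapped. Fcrls, a receptor of resident microglia, was at 0, 0.682 and 0.788 FPKM in KO against 0, 0 and 0.314 FPKM in WT. For P2ry12, Fcrls and Tmem119, WT replicate 1 held short pieces that did not reach the length minimum. With no such minimum P2ry12 was at 0.354 FPKM and Fcrls at 9.88 FPKM in that library, above every KO library. None of these 7 genes reached the testing minimum. In the main measure Csf1r, a gene shared by the myeloid lineage, was at 2.35 FPKM or more in all 6 libraries. The homeostatic genes P2ry12, Tmem119, Cx3cr1 and Fcrls were at 0.631 FPKM or less in WT by that measure.

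Sall1 was the single gene of this role to be tested. It encodes a zinc finger factor that keeps microglial identity but is also made by neural progenitors. Its level was 16.5, 19.2 and 17.4 FPKM in KO against 14.7, 18.4 and 14.7 FPKM in WT. The groups overlapped, with a difference of 0.15 (SE 0.13), and Sall1 stood far above the other homeostatic genes in each of the 6 libraries. The member sums below are given without it.

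Among the border macrophage genes, Pf4 and Lyz2 were higher in KO on average, each with overlapping groups. Pf4, a chemokine of platelets and border macrophages, was at 10.7, 2.07 and 10.5 FPKM in KO against 0, 0.797 and 3.07 FPKM in WT. KO replicates 1 and 3 were high, whereas KO replicate 2 lay between WT replicates 2 and 3. Its difference of 1.94 (SE 0.71), with an unadjusted p of 0.0341, was the largest of the members. WT replicate 1, at 0, held a short Pf4 piece that did not count. With no minimum transcript length that library was at 4.24 FPKM and the difference was 1.14, and without WT replicate 1 it was 1.46. Lyz2, lysozyme of macrophages and neutrophils, was at 114, 67.1 and 212 FPKM in KO against 85.5, 46.3 and 76.3 FPKM in WT. KO replicate 2 was lower than WT replicates 1 and 3, and the difference was 0.80 (SE 0.45). Lyz2 has a near-identical neighbour, Lyz1, between which reads may be split. Mrc1, the mannose receptor, ranged from 1.23 to 3.17 FPKM in KO and from 0.456 to 1.93 FPKM in WT, with overlap. In WT replicate 1 Mrc1 was assembled over 14.2% of its bases, and over assembled bases alone that library was at 3.21 FPKM. Msr1, a scavenger receptor, was under the testing minimum, at 1.09, 0.826 and 2.50 FPKM in KO against 0.147, 0.688 and 0.551 FPKM in WT. WT replicate 1 was assembled over 9.26% of the bases of Msr1, and over assembled bases alone it was at 1.59 FPKM, above KO replicate 2 at 1.55 FPKM, so the groups overlapped.

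Of the 14 shared myeloid genes, 14 were higher in KO, with a median difference of 0.54, 0 called by limma and 4 without overlap between genotypes. Every KO library was above every WT library for 2.04% of all tested genes. Of these 4, Lgmn and Tyrobp were also separated over assembled bases alone, and Lilr4b and Unc93b1 were not. Without Cd68, 13 of 13 were higher, with a median of 0.49. The regulators and receptors on which the lineage depends come first. Positions are on mm10 (GRCm38), from GENCODE M21. Csf1r, the CSF1 receptor (chr18:61100598-61132149, plus strand), was at 7.29, 4.81 and 13.1 FPKM in KO against 5.53, 2.35 and 4.52 FPKM in WT. KO replicate 2 was below WT replicate 1, so the groups overlapped, and the difference was 0.83 (SE 0.39). Spi1, which encodes the ETS factor PU.1 that directs myeloid gene expression (chr2:91082390-91115756, plus strand), was at 4.77, 3.64 and 6.29 FPKM in KO against 4.32, 1.64 and 2.79 FPKM in WT. KO was above WT in each same-numbered pair of libraries for both genes, while KO replicate 2 again fell below WT replicate 1. Irf8, the partner of PU.1 in microglia, ranged from 1.69 to 2.17 FPKM in KO and from 1.17 to 1.87 FPKM in WT.

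Trem2 and Tyrobp encode a lipid-sensing receptor and the signalling adaptor it needs. Trem2 (chr17:48346401-48354147, plus strand) was at 3.41, 7.85 and 9.76 FPKM in KO against 1.10, 3.67 and 4.43 FPKM in WT. KO was above WT in each pair, but KO replicate 1 was below WT replicates 2 and 3, and the difference was 0.99 (SE 0.48). In WT replicate 1, the lowest, 48.0% of its bases were assembled, against 85.4% in KO replicate 1. With no minimum transcript length WT replicate 1 was at 8.29 FPKM for Trem2, above KO replicates 1 and 2, so pair 1 turned to lower in KO. Tyrobp (chr7:30413760-30417585, plus strand) was at 39.5, 37.8 and 44.1 FPKM in KO against 35.9, 22.5 and 29.8 FPKM in WT. The lowest KO library was above the highest WT library, with 40.5 ± 3.27 FPKM in KO against 29.4 ± 6.74 FPKM in WT (mean ± SD, n = 3 each) and an unadjusted p of 0.0428. Fcer1g, the adaptor of Fc receptors, was at 21.7, 22.3 and 18.1 FPKM in KO against 27.9, 12.1 and 14.3 FPKM in WT. WT replicate 1 was the highest of the 6 for Fcer1g, and the difference was 0.27 (SE 0.31).

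Other myeloid surface genes gave the same direction. Fcgr3, an activating Fc receptor, was at 6.64, 5.16 and 9.28 FPKM in KO against 4.45, 4.43 and 6.11 FPKM in WT. KO replicate 2 was below WT replicate 3, so the groups overlapped for Fcgr3. Lilr4b, an immunoglobulin-like receptor of myeloid cells (chr10:51480632-51486703, plus strand), was at 5.23, 4.54 and 5.51 FPKM in KO against 2.76, 2.51 and 3.59 FPKM in WT. Every KO library was above every WT library, with 5.09 ± 0.497 FPKM in KO against 2.96 ± 0.566 FPKM in WT (mean ± SD, n = 3 each), a difference of 0.63 (SE 0.15) and an unadjusted p of 0.00592. In WT replicate 1, however, 28.4% of the bases of Lilr4b were assembled. With no minimum transcript length that library was at 8.89 FPKM, above every KO library. Lilr4b has a close paralogue, Lilrb4a, so its reads may be shared. Aif1, which encodes the actin-binding protein IBA1, ranged from 0.988 to 3.14 FPKM in KO and from 0 to 1.16 FPKM in WT, and passed the minimum through the KO libraries. Ly86, a partner of the receptor CD180, ranged from 1.06 to 2.87 FPKM in KO and from 0.409 to 2.46 FPKM in WT.

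The lysosomal genes Ctss and Lgmn were among the most abundant members. Cd68, a lysosomal glycoprotein of phagocytes, was listed at 84.7, 183 and 118 FPKM in KO against 31.7, 115 and 93.7 FPKM in WT. In 5 of the 6 libraries 100% of that value came from a transcript that runs into the neighbouring gene Eif4a1, which encodes a translation initiation factor, so those levels cannot be assigned to Cd68. Only WT replicate 1, the lowest, had a transcript of Cd68 alone. Ctss, the protease cathepsin S, was at 56.5, 47.3 and 101 FPKM in KO against 49.0, 33.9 and 58.3 FPKM in WT. KO was above WT in each pair, and KO replicate 3 was the highest for Ctss. Lgmn, the endosomal protease legumain (chr12:102394084-102439813, minus strand), was at 51.1, 56.4 and 80.6 FPKM in KO against 49.1, 49.3 and 47.5 FPKM in WT. The groups did not overlap, with 62.7 ± 15.7 FPKM in KO against 48.6 ± 1.01 FPKM in WT (mean ± SD, n = 3 each) and a difference of 0.33 (SE 0.18). Unc93b1, the chaperone of the endosomal Toll-like receptors, was at 5.44, 4.37 and 9.25 FPKM in KO against 4.26, 2.74 and 4.31 FPKM in WT. Its groups did not overlap either, although KO replicate 2 and WT replicate 3 nearly touched. Over assembled bases alone KO replicate 2, at 4.66 FPKM, was below WT replicate 1, at 5.17 FPKM.

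**Figure D3:**
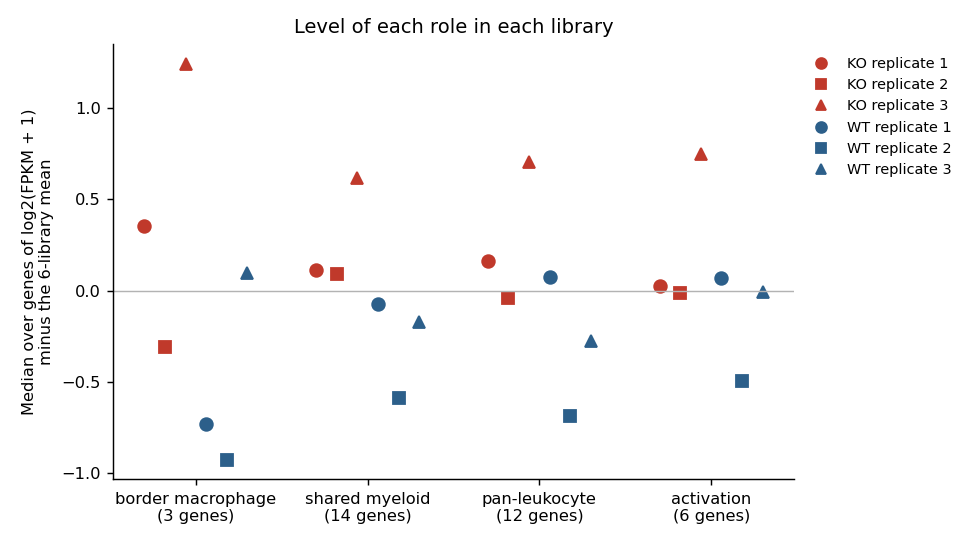
Level of each role in each library: the median over its tested genes of log2(FPKM + 1) minus the gene's mean over the 6 libraries (y axis), with red KO and blue WT symbols; Sall1, the single tested homeostatic gene, is not drawn. KO replicate 3 was the highest in each of the 4 roles and WT replicate 2 the lowest, and in the activation genes the other 4 libraries lay between -0.012 and 0.07.

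The genes shared by leukocytes in general held 3 of the 4 members with the smallest unadjusted p. Of these 12, 11 were higher in KO, with a median difference of 0.58, 0 called by limma and 4 without overlap. Every KO library was above every WT library for 2.04% of all tested genes. Over assembled bases alone Laptm5 was separated, and Arhgdib, Fyb and Lcp1 were not. Arhgdib, an inhibitor of small GTPase cycling (chr6:136923655-136941899, minus strand), was at 10.4, 7.38 and 11.3 FPKM in KO against 4.26, 3.63 and 5.41 FPKM in WT. All 3 KO libraries lay above all 3 WT libraries, with 9.70 ± 2.06 FPKM in KO against 4.43 ± 0.900 FPKM in WT (mean ± SD, n = 3 each), a difference of 0.97 (SE 0.20) and an unadjusted p of 0.00271. In WT replicate 1, however, 43.3% of the bases of Arhgdib were assembled. With no minimum transcript length that library was at 9.61 FPKM, above KO replicate 2, so the groups overlapped. Fyb, an adaptor that links surface receptors to integrins (chr15:6522853-6663313, plus strand), was at 2.14, 3.02 and 4.34 FPKM in KO against 1.00, 1.14 and 1.31 FPKM in WT. Fyb too was separated in the main measure, with 3.17 ± 1.11 FPKM in KO against 1.15 ± 0.155 FPKM in WT (mean ± SD, n = 3 each), a difference of 0.92 (SE 0.23) and an unadjusted p of 0.00640. In WT replicate 1, 40.9% of its bases were assembled. With no minimum transcript length that library was at 2.46 FPKM, above KO replicate 1, so the groups overlapped. Laptm5, a lysosomal membrane protein of blood cells (chr4:130913125-130936141, plus strand), was at 8.46, 9.54 and 14.4 FPKM in KO against 6.08, 4.97 and 6.20 FPKM in WT. The groups did not overlap for Laptm5, with a difference of 0.78 (SE 0.21) and an unadjusted p of 0.00932. Laptm5 was separated over assembled bases and with no minimum transcript length as well. Lcp1, the actin bundler L-plastin, was at 3.99, 5.29 and 8.66 FPKM in KO against 3.93, 3.47 and 3.79 FPKM in WT. KO replicate 1 and WT replicate 1 nearly touched for Lcp1.

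The subunits of the phagocyte NADPH oxidase, which makes superoxide, were highest in KO replicates 1 and 3 and WT replicate 1. Cybb, the catalytic subunit, was at 6.46, 1.46 and 5.23 FPKM in KO against 5.45, 0.733 and 2.03 FPKM in WT. WT replicate 1 was the second highest library, and KO replicate 2 was below WT replicates 1 and 3. Cyba, its membrane partner, was at 38.0, 32.6 and 49.0 FPKM in KO against 42.5, 18.5 and 25.6 FPKM in WT. Ncf1, the cytosolic organiser, was at 3.14, 2.18 and 5.16 FPKM in KO against 2.36, 1.04 and 1.49 FPKM in WT. KO replicate 2 was below WT replicate 1 for both genes, and the difference of Ncf1 was 0.75 (SE 0.31) with an unadjusted p of 0.0496. Rac2, the GTPase that activates the oxidase, was at 4.24, 2.02 and 3.75 FPKM in KO against 3.03, 1.11 and 1.22 FPKM in WT, again with KO replicate 2 under WT replicate 1.

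The other leukocyte genes overlapped between genotypes. Itgb2, the integrin beta chain of leukocytes, was at 7.43, 4.91 and 9.87 FPKM in KO against 6.69, 2.77 and 4.55 FPKM in WT. Cd53, a tetraspanin, was at 5.37, 3.74 and 7.55 FPKM in KO against 7.0, 2.40 and 4.84 FPKM in WT. In both genes WT replicate 1 was above KO replicate 2, and for Cd53 it was also above KO replicate 1. Coro1a, an actin regulator, was at 8.29, 8.31 and 11.6 FPKM in KO against 10.4, 8.66 and 9.06 FPKM in WT. It was the single tested member with a lower KO than WT mean on the log2 scale (-0.0081, SE 0.16), a sign that turned with the scaling of libraries and with the library left out. Coro1a is also made by neurons. Ptprc, which encodes the leukocyte antigen CD45, ranged from 0.694 to 2.85 FPKM in KO and from 0.475 to 1.36 FPKM in WT. In WT replicate 1, however, 17.1% of the bases of Ptprc were assembled. With no minimum transcript length that library was at 28.3 FPKM, and over assembled bases alone at 3.28 FPKM. By either measure it was above every KO library.

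The activation genes had a median difference of 0.24 over 6 tested members, all higher in KO, with 0 called by limma and 0 without overlap. Ccl3, a chemokine that microglia release when stimulated, was at 6.76, 6.18 and 6.40 FPKM in KO against 6.94, 5.44 and 3.80 FPKM in WT. WT replicate 1 was the highest library, and the difference was 0.25 (SE 0.20). Ccl4, its neighbour and relative, was at 1.89, 2.84 and 6.78 FPKM in KO against 4.51, 1.57 and 2.94 FPKM in WT. For Ccl4 KO was above WT in pairs 2 and 3 and below it in pair 1. Spp1, the secreted phosphoprotein osteopontin, was at 16.4, 32.5 and 40.5 FPKM in KO against 15.7, 29.1 and 36.5 FPKM in WT. Both replicate 1 libraries were low for Spp1, and the groups overlapped. Cd14, the co-receptor for lipopolysaccharide, was at 5.31, 0 and 8.05 FPKM in KO against 7.32, 0.692 and 1.5 FPKM in WT. KO replicate 2 held a piece of Cd14 under the length minimum, so its 0 does not stand for a lack of transcript, and the difference of 0.23 (SE 0.98) had the widest error of the members. Tlr2, a receptor for bacterial lipoproteins, was at 2.21, 1.72 and 4.98 FPKM in KO against 1.98, 0.907 and 2.24 FPKM in WT, with KO replicate 3 high. Tlr7, a receptor for single-stranded RNA, ranged from 1.08 to 1.68 FPKM in KO and from 0.653 to 1.21 FPKM in WT. Cd86, a costimulatory ligand, was under the minimum, at 0.741, 0.539 and 1.32 FPKM in KO against 0, 0.258 and 0.535 FPKM in WT. The 0 of WT replicate 1 stands for pieces under the length minimum, and with no such minimum that library was at 4.79 FPKM, above every KO library.

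The roles were not ordered by a test, and their medians (0.80 for 3 border macrophage genes, 0.54 for shared myeloid, 0.58 for leukocyte and 0.24 for activation genes) rest on few genes. Ratios within a library do not depend on how many of these cells it held, if both genes come from the same cells. Lyz2 over Csf1r was 15.6, 14.0 and 16.2 in KO and 15.5, 19.7 and 16.9 in WT, which overlap while Lyz2 itself varied from 46.3 to 212 FPKM. Ccl3 over Csf1r was 0.927, 1.29 and 0.489 in KO and 1.26, 2.32 and 0.841 in WT. That ratio overlapped between genotypes and was lower in KO in each of the 3 pairs. Mrc1 over Csf1r was 0.181, 0.256 and 0.242 in KO and 0.0825, 0.490 and 0.427 in WT. It overlapped too, and was higher in KO in pair 1 and lower in pairs 2 and 3. In WT replicate 1, however, 14.2% of the bases of Mrc1 were assembled. Over assembled bases alone Mrc1 was at 3.21 FPKM and Csf1r at 6.09 FPKM in that library. KO replicate 1 was at 1.49 and 8.02 FPKM by that measure, so pair 1 of this ratio turned to lower in KO. Tyrobp over Csf1r was 5.42, 7.86 and 3.37 in KO and 6.50, 9.57 and 6.59 in WT, lower in KO in each pair. Trem2 over Tyrobp was 0.0861, 0.2077 and 0.2213 in KO and 0.0306, 0.1635 and 0.1485 in WT, higher in KO in each pair. Both ratios overlapped between genotypes. With no minimum transcript length WT replicate 1 had more Trem2 (8.29 FPKM) than KO replicate 1 (3.41 FPKM) and less Tyrobp (35.9 against 39.55 FPKM). Pair 1 of Trem2 over Tyrobp thus turned to lower in KO in that setting. Fcer1g over Tyrobp and Tmem119 over Csf1r overlapped too, with pairs in both directions. Over assembled bases alone Tmem119 was at 2.65 FPKM in WT replicate 1 against 1.29 FPKM in KO replicate 1, so pair 1 of its ratio turned to lower in KO. The homeostatic genes without Sall1, summed over the summed leukocyte genes, gave ratios of 0.0137, 0.0309 and 0.0308 in KO and 0.00699, 0.0154 and 0.0165 in WT. In the main measure that ratio was higher in KO in each pair, with KO replicate 1 below WT replicates 2 and 3. Its WT replicate 1 value leaves out the short pieces of Fcrls and P2ry12 described above. With no minimum transcript length Fcrls was at 9.88 FPKM in WT replicate 1 against 0 in KO replicate 1. The direction of pair 1 thus depends on the length minimum.

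Promoter sequence was set beside the levels because PU.1 binds purine-rich boxes and its gene, Spi1, is among the members. RefSeq promoter windows on GRCm38.p6, from 250 bases before to 50 after a start, matched 32 of the 45 members, with 43 windows. Spi1, Csf1r and Tyrobp were among the members without a window. The box GAGGAA, searched on both strands, was in 19 of the 43 windows (44.2%), against 28.3% of all 32851 windows. Windows of 1 gene are not independent, and those of Fcgr3 overlap and hold the same box. By gene, 18 of 32 members (56.2%) held the box in a window, and no such share by gene was computed over all promoters. Such a match is a run of letters and not a measured binding site. The 250 bases before the start are printed below for Pf4, which had the largest difference, for Trem2, for Arhgdib and Fyb, which had the smallest unadjusted p with the box in a window, and for Lilr4b, which was separated between genotypes in the main measure and held no box. Capitals mark GAGGAA or its reverse complement TTCCTC.
Pf4, chr5:90772185-90772434, plus strand: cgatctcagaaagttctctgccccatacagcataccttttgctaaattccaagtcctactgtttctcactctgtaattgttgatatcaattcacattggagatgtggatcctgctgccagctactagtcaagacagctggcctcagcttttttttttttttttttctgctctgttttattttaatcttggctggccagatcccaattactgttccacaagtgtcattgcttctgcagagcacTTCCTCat
Trem2, chr17:48346151-48346400, plus strand: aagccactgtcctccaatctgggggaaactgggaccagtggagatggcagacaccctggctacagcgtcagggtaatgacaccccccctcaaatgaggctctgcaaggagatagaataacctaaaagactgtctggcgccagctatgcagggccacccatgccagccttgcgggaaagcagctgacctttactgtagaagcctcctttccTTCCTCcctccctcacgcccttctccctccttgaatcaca
Arhgdib, chr6:136939528-136939777, minus strand: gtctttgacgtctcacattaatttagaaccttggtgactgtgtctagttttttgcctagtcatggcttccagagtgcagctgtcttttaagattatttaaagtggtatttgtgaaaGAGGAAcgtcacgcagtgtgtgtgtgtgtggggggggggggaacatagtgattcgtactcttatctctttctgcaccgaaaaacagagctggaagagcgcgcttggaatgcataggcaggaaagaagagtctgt
Fyb, chr15:6579597-6579846, plus strand: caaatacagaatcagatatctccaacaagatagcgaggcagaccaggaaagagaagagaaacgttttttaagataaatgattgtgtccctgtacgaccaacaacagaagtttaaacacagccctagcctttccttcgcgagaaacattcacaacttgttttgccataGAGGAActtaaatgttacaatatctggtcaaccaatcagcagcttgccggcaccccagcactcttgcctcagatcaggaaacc
Lilr4b, chr10:51480362-51480611, plus strand: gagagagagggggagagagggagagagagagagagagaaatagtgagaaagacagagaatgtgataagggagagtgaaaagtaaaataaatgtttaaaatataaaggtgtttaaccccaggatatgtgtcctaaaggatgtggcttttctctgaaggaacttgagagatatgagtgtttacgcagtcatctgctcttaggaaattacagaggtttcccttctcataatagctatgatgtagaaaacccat
The box began 8 bases before the start for Pf4, 40 for Trem2, 134 for Arhgdib and 83 for Fyb. None of the printed bases is exonic in GENCODE M21 basic. The Arhgdib and Fyb starts lie inside the annotated gene, and Arhgdib has other RefSeq windows without the box.

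Genes outside the 45 that mark the same cells gave values alongside them. Over all tested genes 48.6% were higher in KO, the share to set beside the counts that follow. Of 22 further microglial genes, 11 were tested and 11 were higher in KO, with a median of 0.41. C1qc, a chain of complement C1q, was at 13.9, 17.2 and 36.0 FPKM in KO against 8.87, 8.21 and 8.79 FPKM in WT, without overlap and with a difference of 1.17 (SE 0.34). Rgs10, a G protein regulator, was at 22.6, 17.3 and 17.0 FPKM in KO against 23.0, 17.2 and 15.9 FPKM in WT and did not separate the groups. Of 12 further border macrophage genes, 6 were tested and 6 were higher, with a median of 0.60. Ms4a7, Clec4n and Cd36 were the most abundant of them, with differences of 0.65 (SE 0.41), 0.27 (SE 0.50) and 0.34 (SE 0.52) and overlapping groups. Of 26 further leukocyte genes, 17 were tested and 17 were higher, with a median of 0.69, among them the signalling genes Hcls1 (0.83), Lyn (0.40) and Plcg2 (0.31). Of 22 further activation genes, 14 were tested, 12 higher and 2 lower, with a median of 0.32. Apoe, the lipid carrier that astrocytes also make, was at 240.2, 54.8 and 367 FPKM in KO against 205, 293 and 232 FPKM in WT, with KO replicate 2 far below the others. Limma called 0 genes in each of these lists. At an unadjusted p under 0.05 it counted 4, 0, 6 and 2 genes of the further microglial, border macrophage, leukocyte and activation lists. These are out of 11, 6, 17 and 14 tested, where 1.63% of all genes passed in either direction.

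The signals that microglia depend on showed no common direction. Of 13 tested, 7 were higher and 6 lower in KO, with a median of 0.03, 0 called by limma and 0 with an unadjusted p under 0.05. Cx3cl1, the ligand of the fractalkine receptor, was at 40.3, 32.5 and 24.0 FPKM in KO against 46.5, 33.2 and 24.5 FPKM in WT, with a difference of -0.09 (SE 0.28). Cx3cl1 was highest in the replicate 1 library of each genotype, and the groups overlapped. Itgav, an integrin chain that activates TGF-beta, and Cd200, a ligand that restrains myeloid cells, had differences of -0.01 (SE 0.22) and -0.07 (SE 0.10).

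Markers of other white blood cells were mostly at or near 0. Of 6 monocyte genes, 5 were at 0 in all 6 libraries, among them Ly6c2, Ccr2, Plac8 and Chil3, and the sixth, Fn1, is made by many cells. All 6 mast cell genes, 6 of 7 B cell genes, 8 of 10 T and NK cell genes and 6 of 11 neutrophil genes were at 0 throughout. Summed neutrophil genes ranged from 0.147 to 5.89 FPKM in KO and from 0.0943 to 3.93 FPKM in WT. Red cell transcripts were present: Hbb-bs, a haemoglobin chain whose reads may be shared with its close paralogue Hbb-bt, was at 102, 50.5 and 28.3 FPKM in KO against 165, 37.5 and 21.5 FPKM in WT, highest in both replicate 1 libraries, while 4 of 6 erythroid genes were at 0 throughout. The members without Sall1 and Cd68 summed to 467, 399.7 and 740.2 FPKM in KO and to 407, 274 and 377 FPKM in WT. KO replicate 2 was below WT replicate 1, so those sums overlapped, and KO replicate 3 was the highest.

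**Figure D4:**
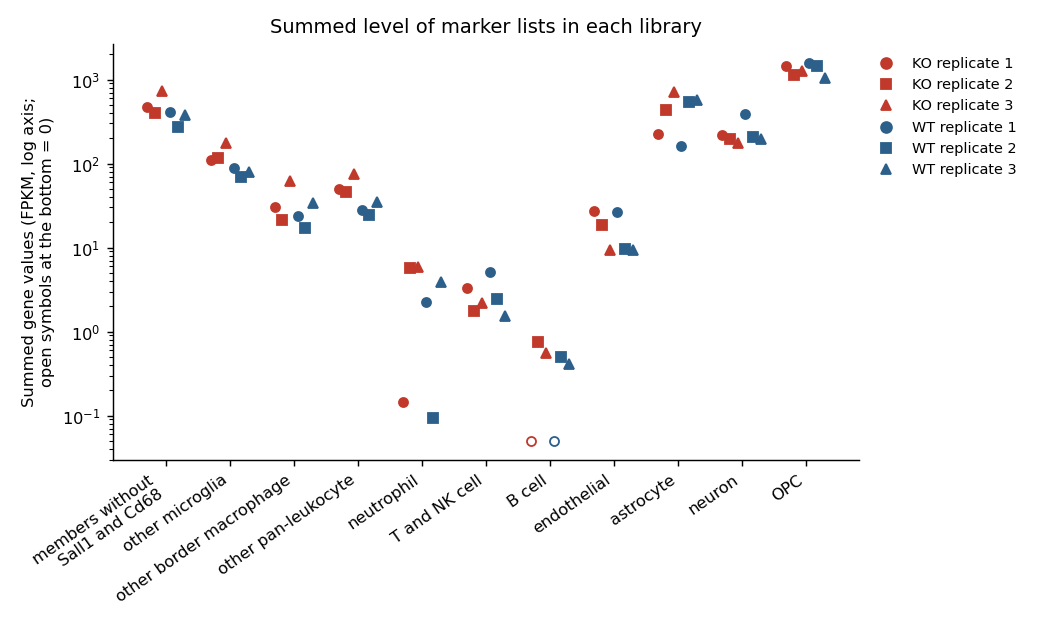
Summed gene values (FPKM, log axis) of marker lists in each library, red for KO and blue for WT, with the replicate number given by the symbol and open symbols for 0. Members without Sall1 and Cd68 summed to 399.7 to 740.2 FPKM in KO and 274 to 407 FPKM in WT, and their sums overlapped between genotypes, as did those of the OPC, astrocyte, neuron and endothelial lists.

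Markers of other neural and vascular cells moved with some libraries. The 11 OPC genes summed to 1439, 1146 and 1263 FPKM in KO and to 1578, 1436 and 1036 FPKM in WT, with 9 of 11 lower in KO. For 3 of these OPC genes (Lhfpl3, Neu4 and Ptprz1) every KO library was below every WT library, where this held for 3.03% of all tested genes. The 8 astrocyte genes summed to 226, 439 and 720 FPKM in KO, highest in KO replicate 3 where the members were also highest, and to 163, 535 and 564 FPKM in WT. The 9 neuronal genes summed to 218, 194 and 178 FPKM in KO and to 389, 207 and 194 FPKM in WT, highest in WT replicate 1. These neuronal sums were lower in KO in each pair, and 8 of 9 genes were lower in KO, with a median of -0.27. The 10 endothelial genes summed to 27.4, 18.5 and 9.45 FPKM in KO and to 26.6, 9.55 and 9.44 FPKM in WT, high in both replicate 1 libraries. Csf1r over Olig1, a ratio of a shared myeloid gene to an OPC gene, was 0.0141, 0.0113 and 0.0315 in KO and 0.0108, 0.00563 and 0.0127 in WT. The ratio overlapped between genotypes and was higher in KO in each same-numbered pair. The part that the share of these other cells plays in the members' levels was not tested.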

How the data were processed

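Libraries of A2B5-selected spinal cord cells, 3 KO and 3 WT by their titles, were compared. Per the submitters' processing notes, the tools were Cufflinks and Cuffdiff (both 2.2.1), TopHat2 2.1.1 and FastQC, on mm10. The deposited files hold 1 Cufflinks assembly per library, in which the authors' values are FPKM per transcript, held as text beside each transcript. No read counts were used, and depth is given relative to the deepest library (0.759 to 1, from coverage per FPKM), without counting intervals. Library strandedness is not stated in those notes.

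Transcripts were matched by position to GENCODE M21 basic. FPKM of transcripts of 300 nt or more was averaged over at least 200 exonic bases that no other gene shares. A transcript that runs into a neighbouring gene counts to both. Genes at a mean of 1 FPKM or more (12052) were tested with limma 3.58.1 in R 4.3.3 on log2(FPKM + 1), two-sided with a trend, fitting genotype alone, and p-values were Benjamini-Hochberg adjusted at 0.05. The code was tested on simulated data. The members and lists were chosen with earlier results of these data known. Values by library are given for members at a mean of 2 FPKM or more, and for a few lower ones named after their values were seen; from each other list the 2 or 3 most abundant genes are named, and the gene past the threshold. A gene taken by this rule is not reported here.

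After subtraction of group means, the KO and WT libraries of 1 number were correlated across genes (r of 0.362, 0.194 and 0.291, against -0.275 to 0.0231 for libraries of different numbers), so the numbers in the titles were taken to pair the samples. Genes are not independent replicates. Alternatives covered pseudocounts, level minimum, scaling, gene values, block, identifier number, array weights and left-out libraries.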

Additional observations from a re-analysis of the deposited data

How the results depend on the processing

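Among the 18 other settings run, limma called 0 members in each. The median difference of the tested members was 0.51 and stayed between 0.30 (pseudocount 5) and 0.74 (array weights) except with FPKM summed over a gene's transcripts of any length, where it was 0.034 (all genes -0.25) and 21 of 41 members were higher in KO. That sum counts a fragmented gene several times. Of the members at a mean of 2 FPKM or more in the main measure, it turned Trem2 to -0.57, Fcgr3 to -2.63, Lilr4b to -0.54, Cd53 to -0.29, Itgb2 to -0.065, Rac2 to -1.52, Fyb to -0.21, Ncf1 to -0.11, Ccl3 to -0.47, Ccl4 to -0.63, Spp1 to -0.30 and Tlr2 to -0.41. Cd68 was -1.69 in that setting because its transcript counts to Eif4a1 there, which leaves Cd68 at 0 in 5 libraries. With no minimum transcript length 8 of 39 members were lower in KO. Of those at a mean of 2 FPKM or more in the main measure, Fcgr3 turned to -1.39, Rac2 to -0.070, Ccl3 to -0.087 and Ccl4 to -0.16. Ptprc, under that mean, was lower too, with WT replicate 1 at 28.3 FPKM, above every KO library. Over assembled bases alone 5 of 39 members were lower in KO: Ccl4 (-0.0012), Cd14 (-0.60), Mrc1 (-0.067), Tmem119 (-0.11) and Coro1a (-0.0042). With a pseudocount of 0.1 Cd14 was -0.36. Coro1a turned to 0.0091 with median scaling, 0.14 in pairs 2 and 3 alone and 0.079 with array weights. Genes called over all genes numbered 1, against 0 with a pseudocount of 0.1, of 5, with summed FPKM or with the replicate block, 2 over assembled bases and 29 in pairs 2 and 3 alone. The block called 0 members, kept 35 of 36 higher and left the median at 0.51. With 1 library left out the all-gene count ranged from 1 to 20 (20 without KO replicate 1), members higher from 29 to 36, and their median from 0.34 to 0.67. Those left-out fits gave -0.20 to 0.52 for Ccl4, -0.38 to 1.21 for Cd14, -0.10 to 0.51 for Cd53, -0.16 to 0.066 for Coro1a and -0.22 to 0.49 for Spp1. Members assembled in all 6 libraries, a setting chosen after seeing the data, had a median of 0.51 with 32 of 33 higher, and members without Cd68, chosen likewise, a median of 0.51 with 34 of 35 higher. Members at an unadjusted p under 0.05 numbered 7, against 17 with array weights, 18 with the block, 11 in pairs 2 and 3 alone, 2 with no minimum transcript length, 4 over assembled bases and 1 with summed FPKM, and 4 to 11 with 1 library left out. The share over all genes changed with the setting too. It was 1.63% in the main fit, 3.42% with array weights, 4.24% with the block and 2.83% in pairs 2 and 3 alone. With no minimum transcript length it was 1.28%, over assembled bases 1.6%, with summed FPKM 1.1%, and with 1 library left out 1.45% to 2.23%. Fragmentation, unknown depth and 3 libraries per genotype limit the precision, and the cause of the other changes was not tested.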
